A study of Homo sapiens with 18 samples.

Results

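A set of 10 interferon (IFN)-stimulated genes was followed through RNA-seq of triple-negative breast cancer (TNBC) cells after silencing of PBRM1, IRF1 or MUC1. The members were chosen by symbol as the genes IFI6, IFI27, IFI44, IFI44L, IFI35, XAF1, CMPK2, SAMD9, SAMD9L and EPSTI1. They were chosen with earlier results of these data known. All 10 were listed in each of the 3 deposited expression tables, which hold 25673, 25540 and 25557 genes. The 18 libraries fall into 6 groups of 3. BT-549 cells, which are BRCA1 wild type, carried a stable control vector or PBRM1shRNA, and in a separate experiment a stable control vector or IRF1shRNA. Both were grown in medium with 10% serum and 10 µg/ml insulin. MDA-MB-436 cells, which carry a BRCA1 mutation, held the inducible tet-MUC1shRNA and were given 0.1% DMSO as vehicle or 500 ng/ml doxycycline (DOX). Their medium also held 10% serum, and no insulin is listed for it. All lines had been selected with puromycin, and total RNA came from triplicate cultures of 1 line. The p-values therefore rest on the spread between those cultures and not between lines. In the BT-549 fits of the deposited values, that spread was pooled over genes by expression level. Whether a line was a clone or a pool is not given in the sources used here. No DOX-treated control shRNA group was used here, so DOX and MUC1 silencing cannot be told apart.

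Type I IFNs bind the receptor chains IFNAR1 and IFNAR2, and the attached kinases JAK1 and TYK2 phosphorylate STAT proteins. These join IRF9 to form ISGF3, which binds the IFN-stimulated response element (ISRE) in the promoters of target genes. IRF1 recognises closely related sequences, and the IFN-gamma pathway acts through a different element named GAS. PBRM1 is a bromodomain subunit of PBAF, a SWI/SNF chromatin remodeling complex, and MUC1 codes for a mucin that spans the cell membrane and has an oncogenic part named MUC1-C. IFI6 and IFI27 encode small hydrophobic membrane proteins of one family, and IFI44 and IFI44L are adjacent paralogs. IFI35 encodes a leucine zipper protein that binds NMI, and XAF1 encodes an antagonist of the apoptosis inhibitor XIAP. CMPK2 encodes a mitochondrial nucleotide kinase, and SAMD9 and SAMD9L encode paralogous antiviral and growth-restricting proteins. EPSTI1 is an IFN-induced gene first described in breast cancer cells grown with stromal cells.

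The 10 genes occupy 8 loci on GRCh38.p14 per the RefSeq annotation. IFI6 lies at chr1:27666064-27672192 (minus strand), IFI44L at chr1:78620448-78646145 (plus) and IFI44 at chr1:78649789-78664078 (plus). CMPK2 lies at chr2:6840553-6866635 (minus), SAMD9 at chr7:93099518-93117979 (minus) and SAMD9L at chr7:93130056-93148385 (minus). EPSTI1 lies at chr13:42886388-42992241 (minus), IFI27 at chr14:94105894-94116690 (plus), XAF1 at chr17:6755447-6775647 (plus) and IFI35 at chr17:43006784-43014456 (plus).

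RefSeq promoter windows (GRCh38.p14, 250 bases before to 50 bases after an annotated start) were found for all 10 genes and searched on both strands. The ISRE core was written GAAANNGAAA, a short IRF element AANNGAAA and the GAS element TTCNNNGAA. Each ISRE core contains a short IRF element by construction. The ISRE core was found in 6 of the 10 genes, namely IFI6, IFI27, IFI44, IFI44L, SAMD9 and EPSTI1, and in 4.38% of the 27305 genes with a window (3.57% of 35116 windows). Among 43 other type I IFN-stimulated genes with a window, 29 (67.4%) held it. A short IRF element was found in all 10 genes, in 39 of those 43 genes and in 26.7% of all genes with a window. The GAS letters occurred in 3 members (IFI27, IFI35 and EPSTI1) and in 9.38% of all genes with a window. Genes with several annotated starts had more windows in which to match. Such a match describes letters and shows no binding.

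Promoter sequences are shown for the 7 members that the expression results turn on: the most reduced genes, both paralog pairs, and IFI35, the least reduced in BT-549/PBRM1shRNA cells. Each is the 250 bases before a RefSeq start (the first-listed window where there are several), 5′ to 3′ along the gene, with ISRE cores and short IRF elements of either strand in capitals. The stretches are chr1:27672193-27672442 (minus), chr14:94110486-94110735 (plus), chr1:78649539-78649788 (plus), chr1:78620198-78620447 (plus), chr7:93117980-93118229 (minus), chr7:93148386-93148635 (minus) and chr17:43006534-43006783 (plus).
IFI6: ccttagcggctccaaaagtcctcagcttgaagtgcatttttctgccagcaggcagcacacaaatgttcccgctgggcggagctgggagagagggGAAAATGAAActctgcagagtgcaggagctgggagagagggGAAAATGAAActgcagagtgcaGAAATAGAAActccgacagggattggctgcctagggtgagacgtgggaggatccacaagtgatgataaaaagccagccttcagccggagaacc
IFI27: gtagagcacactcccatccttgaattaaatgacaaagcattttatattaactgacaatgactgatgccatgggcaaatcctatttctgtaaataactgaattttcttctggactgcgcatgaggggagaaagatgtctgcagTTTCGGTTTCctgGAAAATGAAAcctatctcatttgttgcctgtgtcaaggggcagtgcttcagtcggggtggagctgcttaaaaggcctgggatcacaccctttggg
IFI44: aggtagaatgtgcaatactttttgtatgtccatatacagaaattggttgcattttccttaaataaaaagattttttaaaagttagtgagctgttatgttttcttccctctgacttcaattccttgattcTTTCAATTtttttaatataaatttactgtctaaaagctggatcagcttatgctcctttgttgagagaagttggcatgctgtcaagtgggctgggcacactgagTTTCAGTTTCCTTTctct
IFI44L: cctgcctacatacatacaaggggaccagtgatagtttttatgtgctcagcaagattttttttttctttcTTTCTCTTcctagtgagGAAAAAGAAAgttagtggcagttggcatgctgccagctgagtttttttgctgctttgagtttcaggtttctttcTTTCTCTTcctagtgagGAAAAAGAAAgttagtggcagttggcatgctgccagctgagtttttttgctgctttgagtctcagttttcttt
SAMD9: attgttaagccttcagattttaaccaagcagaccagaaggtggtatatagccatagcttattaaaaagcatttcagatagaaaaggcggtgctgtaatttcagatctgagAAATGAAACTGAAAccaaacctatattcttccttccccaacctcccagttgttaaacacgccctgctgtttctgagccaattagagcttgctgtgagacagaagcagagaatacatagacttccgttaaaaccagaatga
SAMD9L: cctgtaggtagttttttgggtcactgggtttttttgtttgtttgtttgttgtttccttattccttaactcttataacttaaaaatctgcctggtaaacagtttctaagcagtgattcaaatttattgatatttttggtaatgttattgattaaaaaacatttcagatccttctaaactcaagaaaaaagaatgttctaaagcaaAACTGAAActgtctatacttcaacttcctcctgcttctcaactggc
IFI35: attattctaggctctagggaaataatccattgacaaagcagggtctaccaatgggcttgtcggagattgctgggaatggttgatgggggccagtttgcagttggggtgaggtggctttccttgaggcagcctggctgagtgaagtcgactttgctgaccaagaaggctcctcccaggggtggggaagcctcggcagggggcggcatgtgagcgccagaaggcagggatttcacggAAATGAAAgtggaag

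IFI6 held 3 ISRE cores. GAAAATGAAA began 156 and again 115 bases before the start, inside a 29-base segment that occurs in 2 exact copies 41 bases apart, and GAAATAGAAA began 93 bases before it. The IFI44L stretch contained an 85-base segment in 2 exact copies 91 bases apart, and each copy carried GAAAAAGAAA (164 and 73 bases before the start). IFI27 held 2 ISRE cores, on opposite strands, at 108 and 95 bases before the start, with GAAACCGAAA and GAAAATGAAA read in the GAAA direction. The paralogs IFI44 and IFI44L shared the core but not its spacer letters, IFI44 holding GAAACTGAAA at 18 bases. SAMD9 also held GAAACTGAAA, at 136 bases, whereas its neighbour SAMD9L held only 1 short IRF element (46 bases). IFI35, XAF1, CMPK2 and SAMD9L had no ISRE core in their windows.

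Expression was deposited as TPM (a length-corrected share of all transcripts in a library), and silenced and control libraries were compared within each table on log2(TPM + 1). A gene "fell" or "rose" at an adjusted p under 0.05 (limma, Benjamini-Hochberg over all tested genes, two-sided) and was "called" if the absolute log2 fold was also above 1. Short noncoding RNAs took 75.7% to 79.2% of TPM in the PBRM1 table and 84.8% to 88.5% in the IRF1 table, but 12.1% to 15.2% in the MDA-MB-436 table. Other genes sit on a lower TPM scale in BT-549, so the added 1 compresses their folds, and folds are also given after removing those RNAs and rescaling ("rescaled"). Each targeted transcript fell in its own experiment. PBRM1 went from 11.9 ± 1.02 to 2.96 ± 0.266 TPM (SD, n = 3), IRF1 from 4.75 ± 0.410 to 1.17 ± 0.137 TPM and MUC1 from 5.63 ± 0.702 to 3.03 ± 0.538 TPM. The mesenchymal markers VIM, FN1 and CDH2 all averaged at least 1 TPM in each group, and ESR1 and PGR stayed at or below 0.106 TPM summed. Of 9 leukocyte markers, 0 averaged 1 TPM in BT-549. In MDA-MB-436 1 did (CD14), with a summed level of 4.48 to 5.11 TPM with vehicle and 8.54 to 11.9 TPM with DOX. The plasmacytoid dendritic cell markers CLEC4C, LILRA4 and IL3RA were at 0 or summed to at most 0.00293 TPM. Of 5 epithelial markers, 1 (KRT18) averaged 1 TPM in PBRM1 controls and 2 (KRT8 and KRT18) in PBRM1shRNA cells. The summed level of the 5 went from 3.99 to 4.65 TPM to 34.0 to 39.9 TPM in the PBRM1 experiment. It went from 1.73 to 2.38 to 0.833 to 1.01 TPM in the IRF1 experiment, and from 836 to 867 to 1648 to 1724 TPM with DOX. KRT8 and KRT18 made up most of each sum, and the 5 did not all move together. In PBRM1shRNA cells the means of KRT8, KRT18 and EPCAM were higher, and those of CDH1 and KRT19 were lower. EPCAM, CDH1 and KRT19 averaged under 1 TPM in both groups there. The mean of EPCAM was higher in IRF1shRNA cells, and that of KRT19 was lower with DOX, each against the direction of the sum. The part of these markers in the results below was not tested.

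Silencing PBRM1 in BT-549 cells was associated with a decrease in all 10 genes. All 10 were called lower, against 3.86% of the 10639 tested genes, and the median log2 fold was -3.63 for the members and -0.05 for all tested genes. Tested genes had a TPM of at least 1 in at least 3 libraries. IFI27, IFI44, IFI44L, CMPK2, SAMD9 and SAMD9L were under 1 TPM in every PBRM1shRNA library, so they passed this filter only through their controls. The comparison with all tested genes is therefore a description. In none of the 10 did control and PBRM1shRNA libraries overlap, where 35.4% of all tested genes were lower without overlap. The largest fall on the tested scale was that of IFI6, the 5th lowest log2 fold of all tested genes, and the smallest was that of IFI35, the 59th lowest. After rescaling, all 10 were again called lower, against 6.92% of 12703 genes.

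IFI6 was measured at 954, 852 and 993 TPM in control libraries a, b and c and at 16.0, 14.6 and 14.0 TPM in PBRM1shRNA libraries 1, 2 and 3. Its mean was 62.7-fold lower, with a log2 fold of -5.88 ± 0.0856 (SE). In control cells IFI6 ranked 12th to 15th by TPM among protein-coding genes, and in silenced cells 2505th to 2799th. The related gene IFI27 stood at 28.8, 25.2 and 27.9 TPM in controls and at 0.0530, 0.0551 and 0.0363 TPM after silencing. IFI27 thus went from rank 1379 to 1461 to rank 12048 to 12371, and its log2 fold was -4.75 ± 0.0867 (-6.67 ± 0.0598 rescaled).

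IFI44 was 85.6, 71.8 and 84.3 TPM in controls and 0.643, 0.753 and 0.691 TPM in PBRM1shRNA libraries. It was 116-fold lower in the mean, with a log2 fold of -5.58 ± 0.0881 (-6.51 ± 0.0605 rescaled). IFI44L measured 49.2, 41.6 and 48.0 TPM in controls and 0.0373, 0.0188 and 0.0588 TPM after silencing. Its log2 fold was -5.51 ± 0.0878, or -7.48 ± 0.0629 rescaled, where it was the 5th lowest of all tested genes. Both paralogs were lowest in control library b, and all their silenced values were under 1 TPM.

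SAMD9 measured 12.9, 11.7 and 13.8 TPM in controls and 0.151, 0.157 and 0.170 TPM after silencing, an 80.5-fold lower mean (log2 fold -3.57 ± 0.0836, rescaled -5.12 ± 0.0615). SAMD9L measured 13.1, 11.5 and 13.7 TPM in controls and 0.0665, 0.0770 and 0.0607 TPM after silencing, a 187-fold lower mean (log2 fold -3.68 ± 0.0831, rescaled -5.49 ± 0.0652). The paralogs were level in control cells and apart in silenced cells. CMPK2, the nucleotide kinase, was 9.42, 8.12 and 9.46 TPM in controls and 0.00489, 0.0204 and 0.0134 TPM after silencing. No silenced library held more than a trace of CMPK2, and its log2 fold was -3.30 ± 0.0804 (-5.28 ± 0.0707 rescaled).

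IFI35, XAF1 and EPSTI1 kept the largest shares of their control level. IFI35 was 36.2, 28.6 and 33.6 TPM in controls and 3.69, 3.34 and 4.02 TPM after silencing, 8.91-fold lower in the mean (log2 fold -2.85 ± 0.0880). XAF1 was 36.5, 32.2 and 37.8 TPM in controls and 3.73, 3.31 and 3.33 TPM after silencing, 10.3-fold lower (log2 fold -3.03 ± 0.0880). EPSTI1 was 26.9, 24.7 and 27.4 TPM in controls and 1.48, 1.77 and 1.58 TPM after silencing, 16.4-fold lower (log2 fold -3.39 ± 0.0882). These 3 genes and IFI6 were the members with at least 1 TPM in every PBRM1shRNA library. XIAP, the partner that XAF1 antagonises, went from 6.497 ± 0.582 to 5.28 ± 0.345 TPM (log2 fold -0.25 ± 0.0878, fell).

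The order of the members by TPM changed with silencing. In control cells it ran IFI6, IFI44, IFI44L, XAF1, IFI35, IFI27, EPSTI1, SAMD9, SAMD9L and CMPK2, and the ranges of XAF1 and IFI35, of IFI35 and IFI27, of IFI27 and EPSTI1, and of SAMD9 and SAMD9L overlapped. In PBRM1shRNA cells it ran IFI6, IFI35, XAF1, EPSTI1, IFI44, SAMD9, SAMD9L, IFI27, IFI44L and CMPK2, with overlap between IFI35 and XAF1, between IFI27 and IFI44L, and between IFI44L and CMPK2. IFI44L thus moved from the third place to the ninth. Rescaled log2 folds exist for every member. Those of members with an ISRE core in the window ran from -3.93 (EPSTI1) to -7.48 (IFI44L). Members without one ran from -3.15 (IFI35) to -5.49 (SAMD9L), so the 2 ranges overlapped. The lowest folds were those of IFI44L, IFI27 (-6.67), IFI44 (-6.51) and IFI6 (-6.03), which all held a core. A relation to the core was not tested. IFI27, IFI44L and CMPK2 have no ratio of means for the reason given below.

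In the reported BT-549 fits on TPM as deposited, the prior degrees of freedom were infinite. Standard errors there follow the expression level and not each gene's own spread, so p-values are extremely small. In the rescaled fits the prior degrees of freedom were 7.59 (PBRM1) and 8.07 (IRF1), and without a filter 2.64 and 1.96. Standard errors of those fits draw partly on each gene's own spread and are not of the same kind. The largest adjusted p among the members was that of IFI35 with 9.7e-225 in the PBRM1 fit, and over all alternatives it was 5.49e-06, without a filter on low values. Control library b was lowest in all 10 members on the deposited scale and in 8 of 10 after rescaling, and it had the highest share of short noncoding RNAs (79.2%). The values of IFI27, IFI44L and CMPK2 in silenced cells rest on few reads, as judged from the authors' mean normalized counts, so no ratio of means is given for them.

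**Figure D1:**
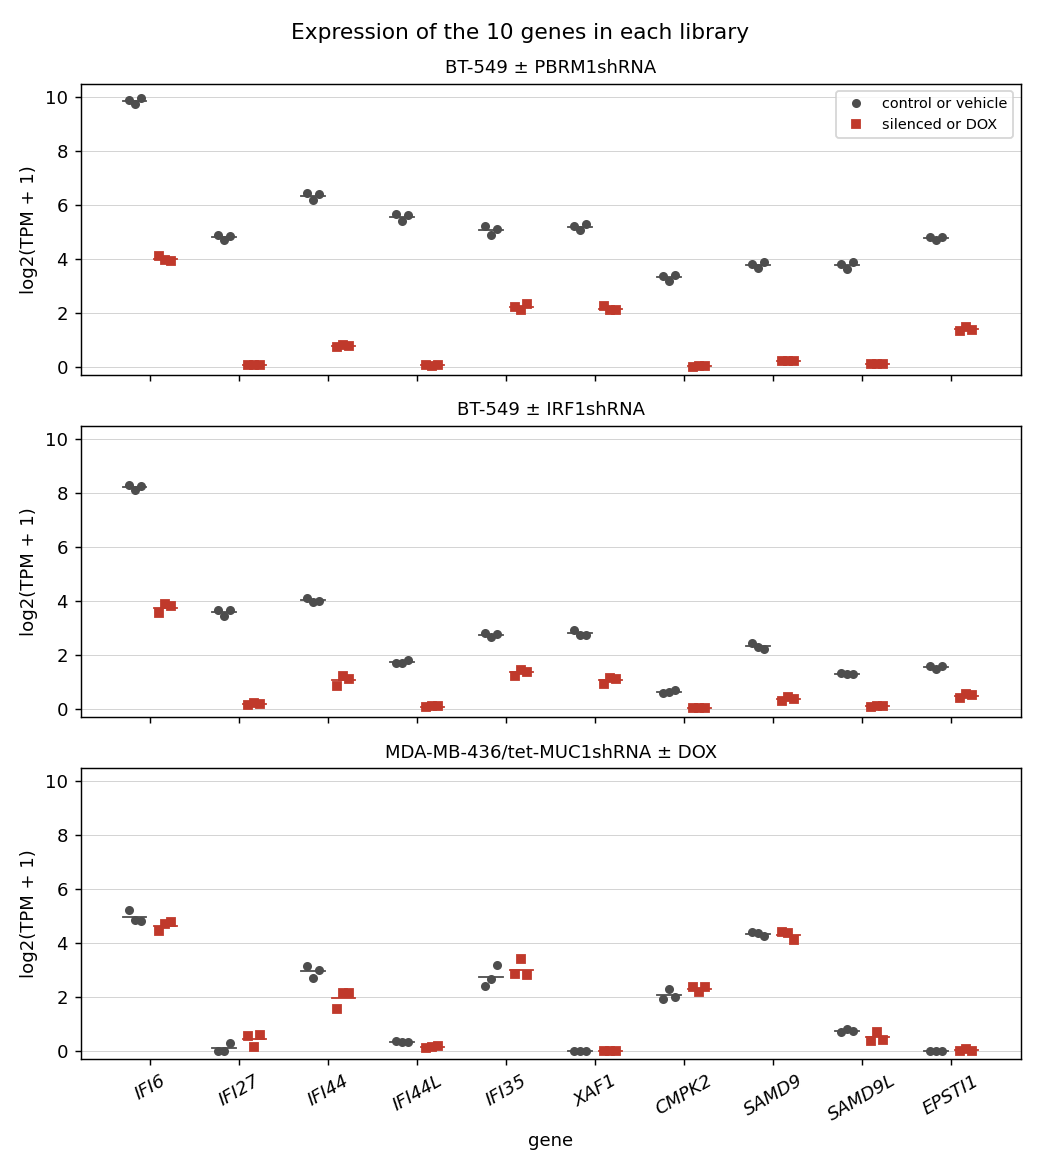
Expression of each gene in every library, as log2(TPM + 1), in the 3 experiments (circles, control or vehicle; squares, silenced or DOX; bars, means of 3 libraries). In BT-549 each gene's control points lie above its silenced points, whereas in MDA-MB-436 the points of most genes overlap or lie near 0.

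With IRF1 silenced, the members were again lower in BT-549 cells. CMPK2 lay under the filter (TPM of at least 1 in at least 3 libraries), and the other 9 were tested. Of these, IFI27, IFI44L, SAMD9, SAMD9L and EPSTI1 were under 1 TPM in every IRF1shRNA library and passed the filter only through their controls. All 9 were called lower, against 1.78% of the 9135 tested genes, with a median log2 fold of -1.74 for the members and -0.06 for all tested genes. This comparison too is a description. Control and IRF1shRNA libraries did not overlap in any of the 10 members, where 25% of all tested genes were lower without overlap. After rescaling all 10 were tested and called lower, against 2.61% of 12722 genes, and the members' median log2 fold was -3.08.

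IFI6 was 314, 277 and 307 TPM in control libraries 1, 2 and 3 and 10.7, 13.7 and 13.1 TPM in IRF1shRNA libraries 1, 2 and 3. Its mean was 24.0-fold lower (log2 fold -4.48 ± 0.149), the lowest log2 fold of all tested genes. IFI27 was 11.8, 9.98 and 11.7 TPM in controls and 0.102, 0.150 and 0.127 TPM after silencing, 88.4-fold lower in the mean. IFI27 had a log2 fold of -3.43 ± 0.128 (5th lowest), and -5.39 ± 0.0826 after rescaling, then the lowest of all tested genes. Both members of this family were thus among the most reduced genes, in which every silenced value lay far under every control value.

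IFI44 measured 16.1, 14.5 and 15.1 TPM in controls and 0.812, 1.32 and 1.16 TPM after silencing, 13.9-fold lower (log2 fold -2.96 ± 0.142, 6th lowest). IFI44L measured 2.23, 2.23 and 2.48 TPM in controls and 0.0368, 0.0643 and 0.0701 TPM after silencing, 40.5-fold lower (log2 fold -1.65 ± 0.0855, rescaled -3.66 ± 0.109). SAMD9 measured 4.44, 3.88 and 3.64 TPM in controls and 0.210, 0.352 and 0.279 TPM after silencing, 14.2-fold lower (log2 fold -1.96 ± 0.105, rescaled -3.25 ± 0.0811). In both paralog pairs the member with the lower control level, IFI44L or SAMD9L, was the more reduced in the ratio of means. SAMD9L was 1.55, 1.43 and 1.43 TPM in controls and 0.0590, 0.0893 and 0.0732 TPM after silencing, 19.8-fold lower (log2 fold -1.20 ± 0.0772, rescaled -2.91 ± 0.0772).

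CMPK2 stood at 0.503, 0.560 and 0.621 TPM in controls and at 0.0212, 0.0202 and 0.0295 TPM in IRF1shRNA libraries, 23.7-fold lower in the mean. Its rescaled log2 fold was -2.13 ± 0.117. The authors' mean normalized count for this gene was 265 over both groups. Shared out by rescaled TPM, that gave an estimated 391 to 606 counts in control libraries and 17.5 to 30.1 in IRF1shRNA libraries. The smallest changes in the ratio of means were those of IFI35 (3.66-fold), EPSTI1 (4.83-fold) and XAF1 (5.49-fold), the same 3 genes that had the smallest ratios after PBRM1 silencing. IFI35 was 5.97, 5.27 and 5.94 TPM in controls and 1.35, 1.75 and 1.60 TPM after silencing (log2 fold -1.39 ± 0.133). XAF1 was 5.64 to 6.58 TPM in controls and 0.912 to 1.23 TPM after silencing (log2 fold -1.74 ± 0.129). EPSTI1 was 1.82 to 2.04 TPM in controls and 0.330 to 0.449 TPM after silencing (log2 fold -1.07 ± 0.0908).

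The largest adjusted p among the 9 tested members was 1.37e-23 (IFI35), and 0.000948 over all alternatives, again without a filter. With quantile scaling SAMD9L and EPSTI1 had log2 folds of -0.93 and -0.87 and with array weights EPSTI1 had -0.98, short of the fold threshold but past the adjusted p. The order of the control libraries depended on the scale. Control 1 was highest in 8 of 10 members as deposited and lowest in all 10 after rescaling, and its share of short noncoding RNAs was the lowest of the 6 libraries (84.8%).

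The control cells of the 2 BT-549 experiments did not start from the same levels. On the rescaled values, which come from tables normalized separately and were not tested against each other, IFI6 averaged 4150 ± 61.4 in the PBRM1 controls and 2262 ± 243 in the IRF1 controls (SD, n = 3). IFI44L averaged 206 ± 7.11 and 17.6 ± 2.90, and CMPK2 averaged 40.0 ± 0.979 and 4.28 ± 0.915. SAMD9 averaged 57.0 ± 1.58 and 29.9 ± 0.666. What else set these control lines apart is not given in the sources used here.

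In MDA-MB-436 cells IFI44 and IFI6 fell with DOX, and the other 3 tested members did not pass the test. Only 5 of the 10 had passed the filter, and the 2 that fell stand against 23.4% of the 13229 tested genes lower by adjusted p. None of the 5 rose by limma (0 also at an unadjusted p under 0.05), against 27% of tested genes higher, and 0 were called lower (2 were lower at an unadjusted p under 0.05), against 1.35% of tested genes. The median log2 fold was -0.05 for the 5 tested members and 0.02 for all tested genes. Among the tested members the groups did not overlap in IFI44 and IFI6, where 27.7% of all tested genes were lower without overlap.

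IFI44 was 7.82, 5.60 and 7.11 TPM with vehicle and 1.96, 3.49 and 3.43 TPM with DOX, 2.31-fold lower in the mean. Its log2 fold was -0.9999 ± 0.177 (adjusted p = 0.00149), just short of the fold threshold, and the fold ranged from -1.21 to -0.80 over all alternatives with every adjusted p at or under 0.00814. IFI6 was 36.7, 28.4 and 27.3 TPM with vehicle and 21.1, 25.5 and 26.3 TPM with DOX (log2 fold -0.32 ± 0.116, adjusted p = 0.0427). The groups of IFI6 came close, at 27.3 TPM in the lowest vehicle and 26.3 TPM in the highest DOX library. Its adjusted p was no longer under 0.05 without vehicle library 1 (log2 fold -0.20, adjusted p = 0.123), without DOX library 1 (-0.23, adjusted p = 0.138) and without DOX library 2 (-0.36, adjusted p = 0.0626), and it stayed under 0.05 in 9 of 15 alternatives.

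SAMD9, the second most abundant member in these cells, was 20.2, 19.9 and 18.4 TPM with vehicle and 20.1, 19.9 and 16.5 TPM with DOX (log2 fold -0.05 ± 0.0816, adjusted p = 0.617). IFI35 was 4.37, 5.31 and 8.03 TPM with vehicle and 6.18, 9.55 and 6.08 TPM with DOX (0.27 ± 0.208, adjusted p = 0.309). CMPK2 was 2.83, 3.92 and 3.06 TPM with vehicle and 4.14, 3.54 and 4.17 TPM with DOX (0.22 ± 0.124, adjusted p = 0.171). The groups overlapped in these 3 genes, and a p that misses the threshold does not show that levels were equal.

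The other 5 members were scarce in MDA-MB-436. XAF1 was listed at 0 in all 6 libraries, and EPSTI1 was listed at 0 in 5 of them with 0.0571 TPM in DOX library 2. IFI27 was listed at 0 in vehicle libraries 1 and 2, with 0.241 TPM in vehicle library 3 and 0.459, 0.123 and 0.516 TPM with DOX. IFI44L was 0.263 to 0.289 TPM with vehicle and 0.0847 to 0.127 TPM with DOX, and SAMD9L was 0.649 to 0.779 TPM with vehicle and 0.300 to 0.639 TPM with DOX. No fold is given for IFI27, XAF1 or EPSTI1. Without a filter, IFI44L had an adjusted p of 0.0268 (log2 fold -0.20 ± 0.0529) and SAMD9L one of 0.112 (-0.25 ± 0.105).

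**Figure D2:**
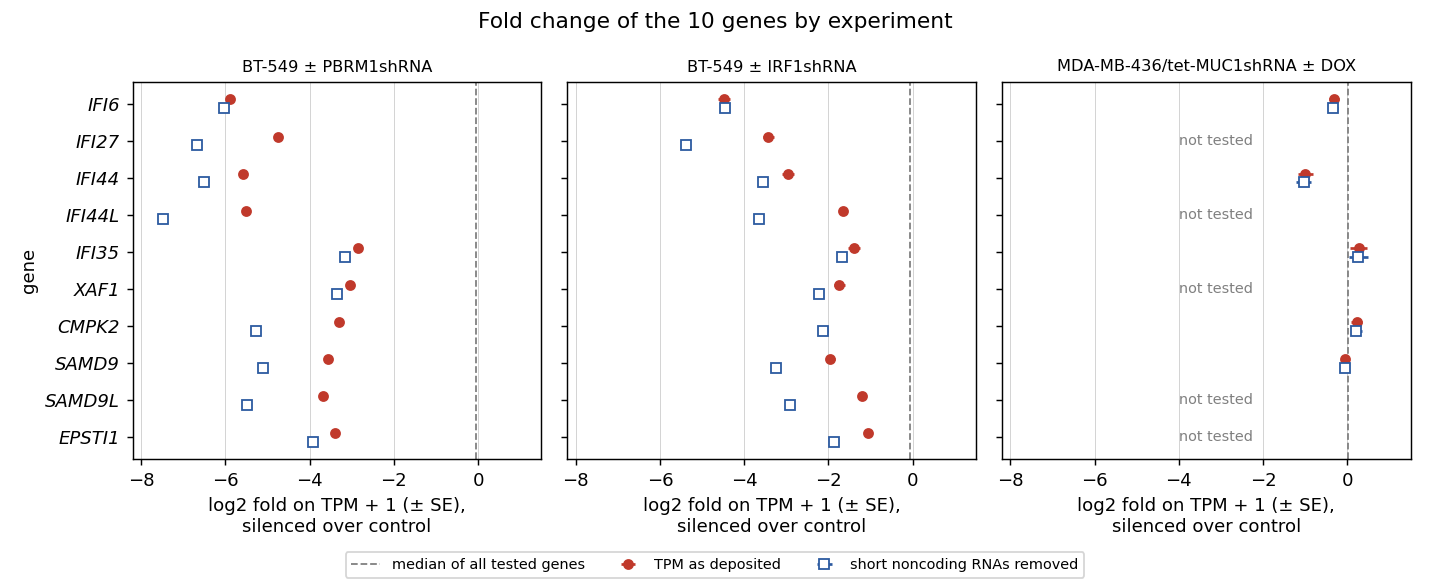
Log2 fold of each gene (silenced over control, ± SE, limma) in the 3 experiments, on TPM as deposited (filled circles) and without short noncoding RNAs (open squares), with the median of all tested genes dashed. In BT-549 all symbols lie to the left of that median, with the smallest changes as deposited in IFI35 (PBRM1 experiment) and EPSTI1 (IRF1 experiment). In MDA-MB-436 the 5 tested genes lie from -0.9999 (IFI44) to 0.27 (IFI35) as deposited.

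Ratios of paired genes inside a library do not depend on the scale of that library, and were compared by an exact permutation test (two-sided, whose smallest possible p with 3 against 3 is 0.1). IFI44L relative to its paralog IFI44 was 0.575, 0.580 and 0.569 in PBRM1 controls and 0.0580, 0.0250 and 0.0851 in PBRM1shRNA libraries (exact p = 0.1). The same ratio averaged 0.152 ± 0.0129 in IRF1 controls and 0.0514 ± 0.00779 in IRF1shRNA cells (exact p = 0.1), and in MDA-MB-436 it was 0.0405 ± 0.00566 and 0.0382 ± 0.00445 (exact p = 0.5). The groups did not overlap in either BT-549 experiment. The PBRM1shRNA ratios rest on few reads, an estimated 4.35 to 12.7 normalized counts of IFI44L per library. The MDA-MB-436 ratios do so too, with IFI44L under the filter. Its estimated normalized counts there were 7.89 to 8.72 with vehicle and 2.56 to 3.82 with DOX.

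SAMD9L relative to SAMD9 was lower in silenced than in control libraries of both BT-549 experiments, without overlap. It was 0.996 ± 0.0140 and 0.430 ± 0.0665 in the PBRM1 experiment and 0.369 ± 0.0222 and 0.266 ± 0.0140 in the IRF1 experiment (SD, n = 3, exact p = 0.1 each). In MDA-MB-436 it was 0.0356 ± 0.00344 and 0.0227 ± 0.00875 (exact p = 0.1), but the lowest vehicle and the highest DOX library both stood at 0.0322. SAMD9L was under the filter there, with an estimated 11.1 to 28.6 normalized counts per library. IFI27 relative to IFI6 was 0.0293 ± 0.00110 and 0.00323 ± 0.000604 in the PBRM1 experiment and 0.0372 ± 0.00109 and 0.0101 ± 0.000773 in the IRF1 experiment (exact p = 0.1 each), the former with an estimated 3.27 or fewer normalized counts of IFI27 per PBRM1shRNA library. IFI35 relative to its binding partner NMI was 1.41 ± 0.110 and 0.525 ± 0.0107 in the PBRM1 experiment and 0.999 ± 0.136 and 0.598 ± 0.0440 in the IRF1 experiment (exact p = 0.1 each). In MDA-MB-436 that ratio was 0.228 ± 0.0576 and 0.165 ± 0.0358 (exact p = 0.2), with NMI itself higher by 0.75 ± 0.0613 on the log2 scale (adjusted p = 1.71e-05). CMPK2 relative to its neighbour RSAD2, the antiviral enzyme viperin, was 0.228 ± 0.0100 in PBRM1 controls. No ratio is given for PBRM1shRNA cells, where CMPK2 had an estimated 0.734 to 3.27 normalized counts per library. In the IRF1 experiment it was 0.210 ± 0.00601 and 0.316 ± 0.0591 (exact p = 0.1), without overlap. SAMD9 relative to IFI6 went down in the PBRM1 experiment (0.0137 ± 0.000210 and 0.0108 ± 0.00134). It went up in the IRF1 experiment (0.0133 ± 0.00129 and 0.0222 ± 0.00312, exact p = 0.1 each, without overlap). In MDA-MB-436 the groups of that ratio overlapped (0.641 ± 0.0808 and 0.785 ± 0.163, exact p = 0.3).

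**Figure D3:**
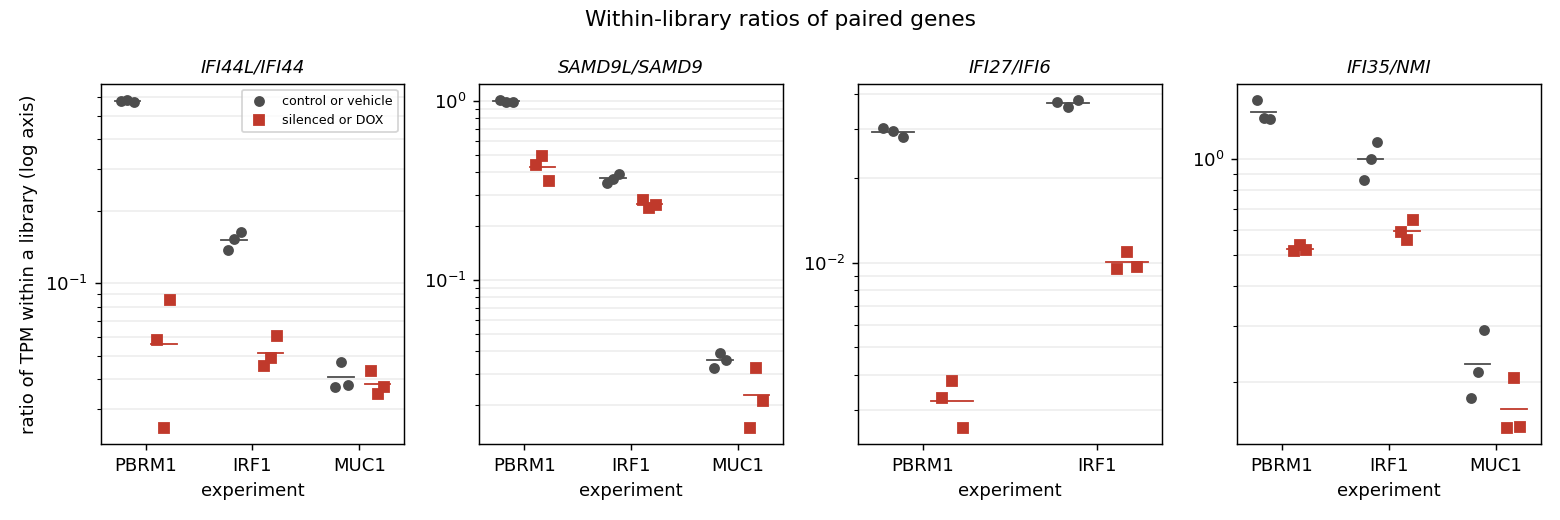
Ratio of TPM within each library (log axis) for 4 gene pairs in control or vehicle (circles) and silenced or DOX libraries (squares), with means of 3 libraries as bars. IFI27/IFI6 is not drawn for MDA-MB-436, where IFI27 was listed at 0 in 2 vehicle libraries. In both BT-549 experiments the silenced points lie under the control points for the 4 pairs drawn. The pairs SAMD9/IFI6 and CMPK2/RSAD2, not drawn, were higher in IRF1shRNA than in control libraries.

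The nearest protein-coding gene on each side of each locus gives a local comparison (16 neighbours). Over all tested genes 34.8% fell and 24.6% rose in the PBRM1 experiment, and 18.5% fell and 5.76% rose in the IRF1 experiment. In the PBRM1 experiment 10 neighbours were tested, and 1 was called lower. That was RSAD2, which overlaps CMPK2 head to head by 751 bases and went from 39.5 ± 3.995 to 0.0696 ± 0.00977 TPM (log2 fold -5.24 ± 0.0876). The counting of strand is not given in the sources used here, so reads in the overlap could count for either gene. A further 6 neighbours fell by less than the fold threshold, from -0.79 ± 0.0880 (PTGFR, beside IFI44L) to -0.28 ± 0.0838 (DNAJC15, beside EPSTI1), and CDK6, beside SAMD9, and RPL27, beside IFI35, rose. VAT1, 151 bases from IFI35, had a log2 fold of -0.07 ± 0.0866 (adjusted p = 0.489). The IFI27 paralogs on either side of IFI27 fell far less than IFI27 itself, IFI27L1 by 0.46 ± 0.0853 and IFI27L2 by 0.56 ± 0.0859 on the log2 scale. FBXO39, 568 bases from XAF1, was under the filter at means of 1.001 and 0.134 TPM.

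In the IRF1 experiment 10 neighbours were tested and 2 were called lower, RSAD2 (2.68 ± 0.265 to 0.0746 ± 0.00434 TPM, log2 fold -1.77 ± 0.0893) and VAT1 (-1.01 ± 0.151). A further 3 fell by less than the fold threshold, namely SOX11 (-0.69 ± 0.0907, beside CMPK2), IFI27L2 (-0.50 ± 0.124) and PTGFR (-0.46 ± 0.110). CDK6 rose (0.34 ± 0.127), and IFI27L1 did not pass the test (-0.22 ± 0.0971, adjusted p = 0.0793). CMPK1, the cytosolic relative of CMPK2, had log2 folds of 0.08 ± 0.0872 (adjusted p = 0.414) and 0.16 ± 0.151 (adjusted p = 0.489) in the PBRM1 and IRF1 experiments, where CMPK2 was lower. With DOX in MDA-MB-436, 9 neighbours were tested, of which 4 rose (FAM76A, DNAJC15, IFI27L1 and IFI27L2) and 1 fell (CDK6). Of all tested genes there, 27% rose and 23.4% fell.

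**Figure D4:**
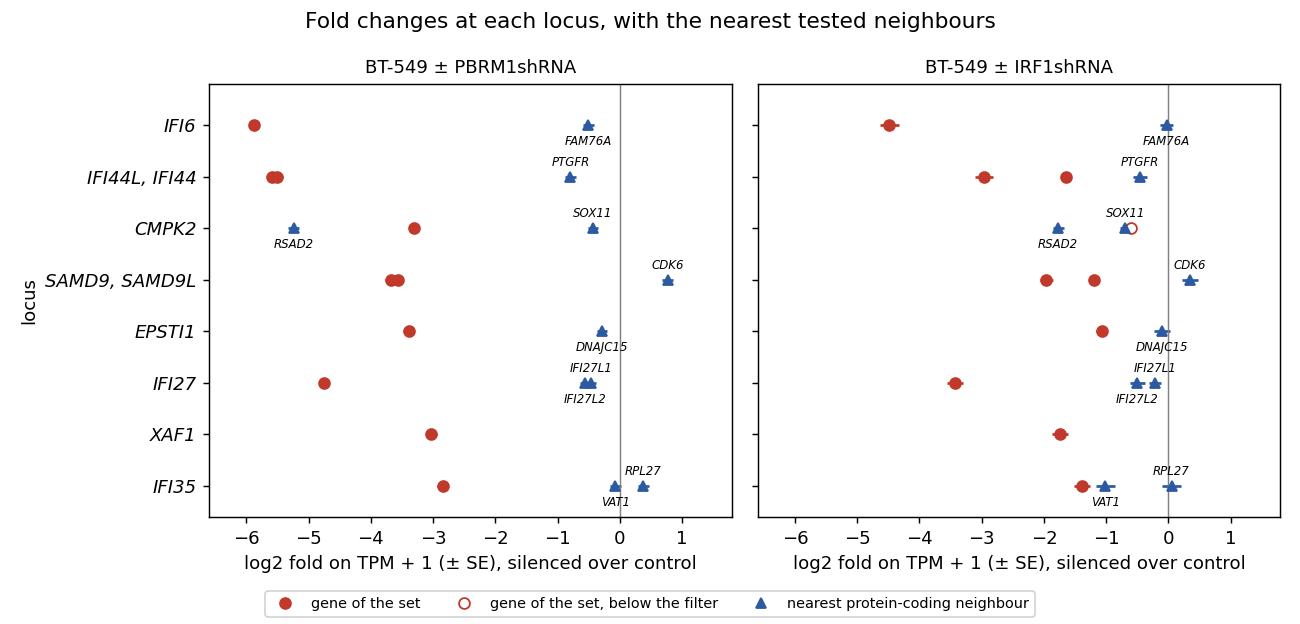
Log2 fold (silenced over control, ± SE) of the genes of the set at each of 8 loci (circles; open, under the filter and fitted without it) and of their nearest tested protein-coding neighbours (triangles) in BT-549. RSAD2 is the lowest neighbour in both panels, at -5.24 and -1.77, and the remaining neighbours lie between -1.01 and 0.77.

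The other genes of the type I pathway were taken from a list of 54 further IFN-stimulated genes. In the PBRM1 experiment 53 were tested and all 53 fell, 49 being called, where 34.8% of all tested genes fell and 3.86% were called lower. The median was -3.08 beside -3.63 for the members. The largest falls were those of the antiviral GTPase MX1 (-7.57 ± 0.0877), the tetherin gene BST2 (-6.65 ± 0.0878) and the RNA sensor OAS2 (-6.40 ± 0.0882). In the IRF1 experiment 44 were tested and all 44 fell, 31 being called, where 18.5% of all tested genes fell and 1.78% were called lower. The median was -1.53 beside -1.74 for the members. MX1 (-3.93 ± 0.143), IFITM1, which restricts viral entry (-3.55 ± 0.151), and BST2 (-3.47 ± 0.137) led. With DOX in MDA-MB-436, 42 were tested, of which 12 fell, 13 rose and 17 did not pass the test, with a median of 0.06. Both shares lay near those of all tested genes, of which 23.4% fell and 27% rose. IFIT3 went down (-0.84 ± 0.179, adjusted p = 0.00422), whereas PARP9 (0.78 ± 0.0608), NMI (0.75 ± 0.0613) and the ubiquitin-like modifier ISG15 (0.65 ± 0.0956, adjusted p = 0.000526) went up. Among the genes that fell there were the IFN-induced IFIT1 (-0.39 ± 0.144), IFIT2 (-0.48 ± 0.0953), OASL (-0.57 ± 0.185), the ubiquitin-like ligase HERC5 (-0.54 ± 0.0976) and the RNA helicases DDX58 (-0.65 ± 0.0623) and DDX60 (-0.53 ± 0.120). The other genes of the list that rose were ADAR, DDX60L, DTX3L, EIF2AK2, HERC6, IFITM3, SHISA5, TDRD7, TRIM21 and ZC3HAV1.

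Among 28 type I ligands, receptors and signalling genes, 16 were tested in the PBRM1 experiment, and 10 fell while 3 rose, beside 34.8% and 24.6% of all tested genes. STAT2 (log2 fold -2.13 ± 0.0882) and IRF7 (-2.06 ± 0.0779) fell, as did IRF9 (-1.99 ± 0.0878) and IRF1 (-1.59 ± 0.0879). The receptor chains IFNAR1 (0.31 ± 0.0881), IFNAR2 (0.27 ± 0.0881) and IL10RB (0.43 ± 0.0878) rose. In the IRF1 experiment 6 of 16 fell, among them IRF1 (-1.40 ± 0.126) and IRF9 (-1.36 ± 0.145), and 0 rose, beside 18.5% and 5.76% of all tested genes. PBRM1 itself had a log2 fold of 0.02 ± 0.146 there (adjusted p = 0.959). With DOX, 2 of 19 fell and 7 rose, beside 23.4% and 27% of all tested genes. The genes that rose included the feedback inhibitor SOCS3 (1.15 ± 0.0701), IRF9 (0.71 ± 0.0705) and IRF7 (0.45 ± 0.109). The STING gene, listed as TMEM173, fell (-0.63 ± 0.130), as did the RIG-I adaptor MAVS (-0.19 ± 0.0390). IRF1 (0.04 ± 0.0966, adjusted p = 0.773) did not pass the test, and PBRM1 fell (-0.60 ± 0.0642).

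Of 20 genes of the IFN-gamma response, all 11 tested fell in the PBRM1 experiment, beside 34.8% of all tested genes. The guanylate-binding proteins GBP1 (-4.67 ± 0.0880) and GBP2 (-4.25 ± 0.0879) and the tryptophan-degrading enzyme IDO1 (-3.78 ± 0.0847) were in front. After IRF1 silencing 3 of the 4 tested fell (IFI30, GBP1 and WARS), beside 18.5% of all tested genes, and the rest of the list lay under the filter. With DOX 3 of the 7 tested fell, WARS most (-1.30 ± 0.0484), while IFI30 (0.97 ± 0.0684) and GBP3 (0.34 ± 0.0849) rose. Of all tested genes, 23.4% fell and 27% rose with DOX. Of 14 reference genes, 13 were tested in the PBRM1 experiment, where 34.8% of all tested genes fell and 24.6% rose. Of the 13, 1 fell (GUSB, -0.71 ± 0.0879) and 6 rose, among them ACTB (0.66 ± 0.0812) and PPIA (0.56 ± 0.0848). After IRF1 silencing 4 of 14 fell (PPIA the most, -0.72 ± 0.144) and 0 rose, beside 18.5% and 5.76% of all tested genes. With DOX 4 of 14 fell and 4 rose, near the shares of all tested genes. The reference genes ranged from -0.72 to 0.66 in the 2 BT-549 experiments, and the members tested there (10 and 9) lay below that range. CMPK2, fitted without the filter in the IRF1 experiment, lay inside it at -0.61. With DOX the reference genes ranged from -0.654 to 0.272. Of the tested members there, IFI44 (-0.9999) lay below that range. IFI6 (-0.325), SAMD9 (-0.053), CMPK2 (0.219) and IFI35 (0.270) lay inside it.

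Across the 18 libraries, the genes whose profile was most like that of the members were LY6E (Pearson's r = 0.997), OAS3 (r = 0.997), HLA-E (r = 0.997), HLA-C (r = 0.996) and PARP14 (r = 0.995). The profile was the mean deviation from the control mean of the table over the 4 members tested in all 3 experiments (IFI6, IFI44, IFI35 and SAMD9), and the search covered 8893 genes. Libraries of one table share their controls, and the values rest mostly on the step between the groups, so the r values are a description. LY6E, a glycolipid-anchored antiviral protein, had log2 folds of -5.02 ± 0.0868, -2.79 ± 0.151 and -0.09 ± 0.0446 in the PBRM1, IRF1 and MUC1 experiments. OAS3, which makes the activator of RNase L, had -5.42 ± 0.0882, -2.93 ± 0.138 and -0.44 ± 0.0958.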

How the data were processed

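RNA-seq libraries of 18 cultures were analysed, in 6 groups of 3. Per the labels, libraries were made with a stranded kit for polyadenylated RNA, and the submitters' processing notes name STAR, GRCh38 and DESeq2 without versions. Which annotation, read counter and TPM program were used was not given in the sources used here. Deposited by the authors were 3 TPM tables, each column summing to 1000000 over all listed genes. The authors' deposited DESeq2 tables hold a mean normalized count per gene (used as the authors' mean, a signal without replicates) and fold changes, standard errors, test statistics and p-values, which were not used. Depth per library is unknown, since TPM does not keep it. Summed over genes, the authors' mean normalized counts were 2.71e+07, 6.31e+07 and 1.19e+07 in the PBRM1, IRF1 and MUC1 experiments. The authors' mean normalized counts were used to judge how many reads low values rest on.

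The 3 control columns of the PBRM1 table match their group but no single sample label and are called a, b and c. Values were analysed as log2(TPM + 1) for genes with at least 1 TPM in at least 3 of 6 libraries, with limma 3.58.1 in R 4.3.3 (lmFit, eBayes with trend, two-sided, Benjamini-Hochberg), each table by itself. Fold changes understate the change of low genes. Within-library ratios were compared by exact permutation (SciPy 1.17.1). The script was tested on simulated data. In the PBRM1 experiment same-numbered columns deviated together (correlations 0.455, 0.309 and 0.290, each library closest to its own number). The reported fits and permutation tests did not use the number, and a replicate block was run as an alternative. The library numbered 2 had the highest share of short noncoding RNAs in both groups (79.2% in control b, 77.3% in PBRM1shRNA). What made the columns deviate together was not tested. The labels do not say what the number means. Alternatives were another pseudocount (0.1), other filters, removal of short noncoding RNAs by symbol, 2 further scalings, other variance settings, a replicate block and leaving out each library with the tested genes kept.

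The members and the gene lists were chosen with earlier results of these data known. Named genes were the members, silenced genes, nearest protein-coding neighbours, partners and paralogs, the 3 largest folds of each list and genes against its direction, and the 5 genes of most similar profile. IRF7, IRF9, STAT2 and the ISRE motif counts were added for background. A gene that the rule names is not reported here. Genes sharing reads with near-identical copies could be split by the counting.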

Additional observations from a re-analysis of the deposited data

How the results depend on the processing

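All log2 folds of the members in BT-549 kept their direction and an adjusted p under 0.05 in every alternative in which they were tested (149 values in the PBRM1 experiment, 129 in the IRF1 experiment). In MDA-MB-436, 66 of 73 values kept their direction and their side of that threshold, and 6 of IFI6 lost the adjusted p: without a filter (log2 fold -0.32, adjusted p = 0.0956), without the trend (0.0888), with the replicate block (0.0690) and without vehicle library 1, DOX library 1 or DOX library 2. SAMD9 turned positive without DOX library 3 (adjusted p = 0.700), its log2 fold running from -0.101 to 0.0350 on leaving out a library.

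With a mean of at least 5 TPM, only 3 members were tested in the IRF1 experiment, all 3 called, and 15 of the other type I genes fell (44 as reported), with fewer genes tested there. In MDA-MB-436, 1 member (IFI44) was called lower with the 0.1 pseudocount, without short noncoding RNAs, with median-ratio scaling and with array weights, and 0 to 1 on leaving out a library. The members lower by adjusted p there numbered 1 with the 5 TPM filter, the fit without the trend and the replicate block, and 1 to 2 on leaving out a library.

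Over all genes, the counts called lower were 646, 229 and 879 in the PBRM1 experiment with the 0.1 pseudocount, the 5 TPM filter and without short noncoding RNAs (411 as reported). In the IRF1 experiment they were 325, 94 and 332 (163 as reported), and those called higher 25, 3 and 82 (5 as reported), 8 with median-ratio and with quantile scaling, 9 with array weights and 4 to 8 on leaving out a library. In MDA-MB-436 they were 353 lower and 269 higher with the 0.1 pseudocount and 109 and 102 with the 5 TPM filter (178 and 177 as reported). Removing short noncoding RNAs moved the median log2 fold of all tested genes from -0.05 to -0.16 in the PBRM1 experiment. The cause of these shifts was not tested. The estimate of array weights stopped before its tolerance was reached in some fits.

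The replicate block left 10 members called lower in the PBRM1 experiment and 9 in the IRF1 experiment, and it changed no call of a member. Of the members' adjusted p-values, that of IFI6 in MDA-MB-436 was the one it moved across 0.05. Same-numbered columns deviated together in the PBRM1 experiment, but not throughout the IRF1 experiment (correlations -0.209, 0.0854 and 0.228) or the MUC1 experiment (0.0530, -0.0364 and 0.00575). Low TPM limits IFI27, IFI44L and CMPK2 in PBRM1shRNA cells and 5 members in MDA-MB-436.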
